A study of Drosophila melanogaster with 5 samples.

Results

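The genes described here build synaptic vesicles and release transmitter from them. They were chosen by name from a list of 42 genes of vesicle fusion, the active zone, the vesicle pool, endocytosis, transmitter handling and the cytoskeleton of the terminal. Their transcripts were measured in larval cephalic complexes, the brain lobes with the attached eye discs, of lethal giant larvae (lgl) mutants and control larvae. Of the 42 genes 35 were measured, among 11982 genes with a probe set of their own. Syx1A, comt, Nsf2, Syt1 and Syt4 had no probe set named here, and stnA and stnB, whose annotated spans overlap, shared 1 probe set and were not read from it. The controls were FRT82B 3rd instar larvae at day 0, with 2 arrays. The mutants carried the alleles lgl27S3 and lglE2S31 and were 3rd instar larvae at day 4, with 3 arrays. This combination is described as null for lgl. FRT82B names a recombination site used in fly genetics. RNA of each array was pooled from several complexes. The labels and the study's text disagree on the control genotype and on the size of the pools, and the labels are followed here. Mutants were also older than controls, so that genotype and larval age cannot be told apart.

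A nerve terminal stores transmitter in vesicles that are loaded by transporters, held in a pool, docked at the active zone and fused with the plasma membrane when calcium enters. Fusion is driven by SNARE proteins, with the SNARE on the vesicle zipping up with those on the plasma membrane, and is timed by synaptotagmins. The membrane is then taken back by clathrin adaptors and dynamin. In the larval brain most of these genes are known as genes of differentiated neurons. lgl encodes a cytoskeletal protein of apico-basal polarity, and without it the brain and discs overgrow.

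The values are log2 expression after RMA (robust multi-array average), 1 per probe set and array, and each change is the lgl mean minus the FRT82B mean with its standard error (SE). A gene counted as called when limma's adjusted p was under 0.05 and its mean moved by 1 or more on the log2 scale. Over all probe sets 197 were called (1.05%), 95 lower (0.506%) and 102 higher (0.543%). The lgl transcript itself was at 7.74 and 6.74 in controls and at 2.44, 2.40 and 2.24 in mutants, so that the arrays follow their labels. The median of each array lay between 3.79 and 3.86, which is near background. The FRT82B arrays differed by at least 1 on 994 probe sets and pairs of lgl arrays on 84 to 110. The 3′ minus 5′ difference of the actin control, a sign of RNA quality, was 0.71 and 0.73 on the FRT82B arrays and 0.35 to 0.58 on the lgl arrays, and that of eIF-4a was also higher on both FRT82B arrays (1.68 and 2.01 against 1.41 to 1.65). Those of GAPDH (1.21 and 1.37 against 1.18 to 1.36) and 18S rRNA (2.61 and 2.65 against 2.09 to 2.79) overlapped. The part of RNA quality in the results was not tested.

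Synaptic transcripts read lower in lgl tissue for most members, by small steps, and few passed the test. Of the 35 genes 29 had a change below 0, or 82.9%, against 55.5% of all genes, and the median change was -0.68, against -0.03 over all genes. limma called 2 members lower, Frq1 and shi, and 0 higher, with 21 lower and 0 higher at an unadjusted p under 0.05, against 11.3% of all genes lower and 10.7% higher. The called 2 are 5.71% of the members, while 0.609% of all genes were called lower and 0.734% higher. A further 3 genes, Syn, lap and AP-2alpha, passed the adjusted p with changes smaller than 1, so that 5 members, or 14.3%, passed it lower, against 0.943% of all genes lower and 1.15% higher. Every lgl array lay below both FRT82B arrays for 24 members (68.6%) and above both for 2, Liprin-alpha and Eps-15, while the groups overlapped for 9. Over all genes every lgl array was below for 21.1% and above for 17.6%. A change of -0.5 or lower was found for 22 members (62.9%) and for 8.64% of all genes. Among genes brighter than the median probe set these backgrounds were 0.935% called lower and 1.18% higher, 1.43% and 1.83% past the adjusted p lower and higher, 15% and 16.3% under the unadjusted p lower and higher, 23.2% below and 25.1% above on every array, 48.3% with a change under 0 and 12.7% at -0.5 or lower. The members share RNA, arrays and mostly a cell type, so these counts are not those of independent genes. The list was also drawn up with earlier results of these data known, and the study itself reported Frq1 and shi as dysregulated. The shares beside those of all genes are therefore a description and not a test.

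**Figure D1:**
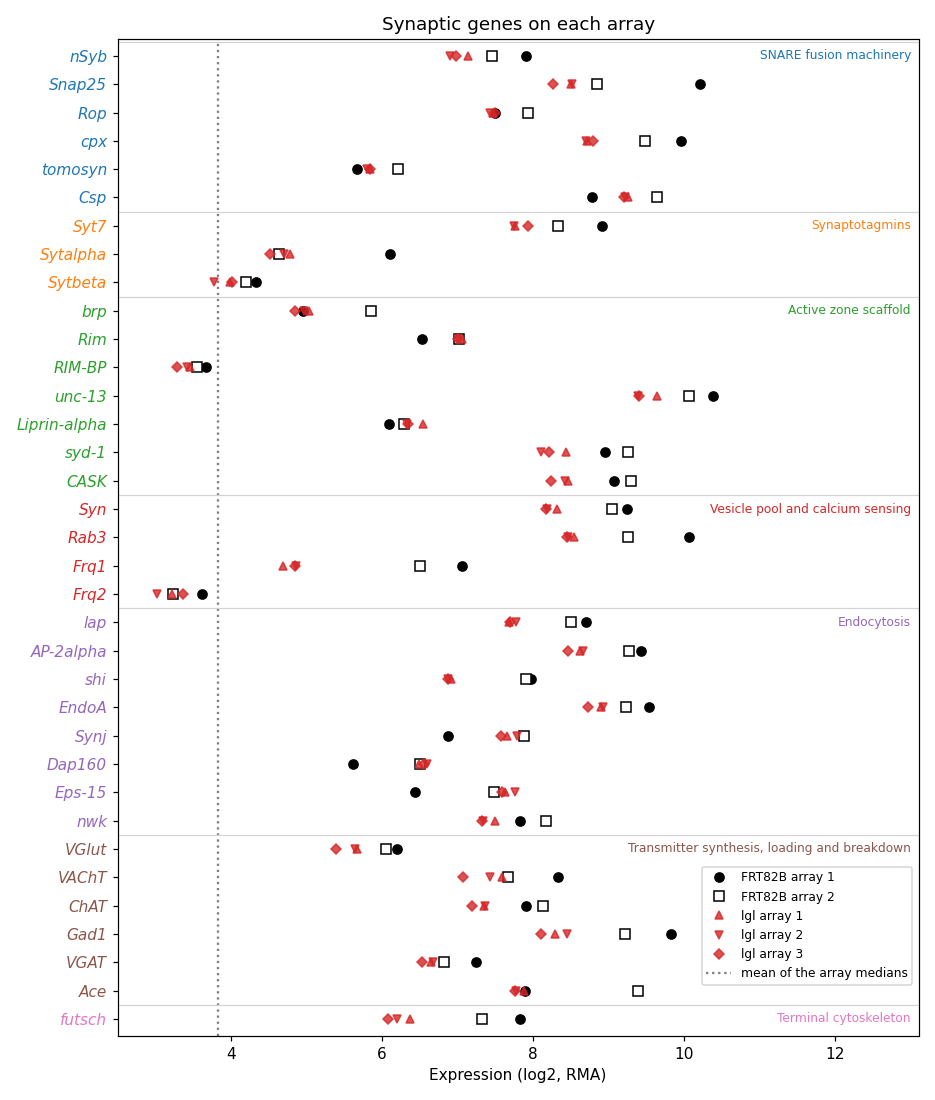
Expression (log2, RMA) of the 35 measured synaptic genes on each of the 5 arrays, ordered by role; black symbols are the 2 FRT82B arrays, red symbols the 3 lgl arrays, and the dotted line the mean of the array medians. The lgl arrays lie close together for nearly all genes, while the FRT82B arrays are far apart for Snap25, Sytalpha and Ace.

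The vesicle pool and its calcium sensors held the deepest fall. Frq1 encodes a frequenin, a neuronal calcium sensor that promotes transmitter release. Its level was 7.06 and 6.51 in FRT82B and 4.69, 4.86 and 4.85 in lgl tissue, with no overlap and all lgl arrays within 0.2 of each other. Frq1 fell by 1.98 on the log2 scale (SE 0.18, limma adjusted p = 0.0301), or 3.94 times. Its change was -2.26 against FRT82B array 1 and -1.70 against array 2. The neighbouring gene Frq2 encodes a second frequenin, and the annotation lists 0 protein-coding genes between them. Frq2 read 3.62 and 3.23 in FRT82B and 3.22, 3.02 and 3.37 in lgl tissue, under the median of every array, so that its change of -0.22 (SE 0.17) is not informative about its transcript. Whether either probe set also binds the transcript of the other gene was not tested.

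Synapsin, encoded by Syn, tethers vesicles in the reserve pool. Its transcript read 9.23 and 9.05 in FRT82B and 8.31, 8.19 and 8.16 in lgl tissue. The groups were well apart, with a change of -0.92 (SE 0.09, limma adjusted p = 0.0324), or 1.89 times lower, just short of the fold threshold. Rab3, a GTPase of the vesicle membrane, read 10.06 and 9.26 against 8.54, 8.46 and 8.44. The lgl arrays were lower than both control arrays here, but the control arrays differed by 0.80 from each other, and the change of -1.18 (SE 0.25) had a limma adjusted p of 0.114.

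Genes of synaptic endocytosis split into those that were lower and those that were not. shi encodes dynamin, the GTPase that cuts vesicles off the membrane. Its brightest probe set was at 7.98 and 7.91 in FRT82B and at 6.91, 6.88 and 6.87 in lgl tissue. shi had the smallest SE of all members, and it fell by 1.06 on the log2 scale (SE 0.06, limma adjusted p = 0.0196), or 2.08 times. A further probe set of shi read 7.26 and 6.84 against 6.15, 6.40 and 6.12 (change -0.83, SE 0.16, limma adjusted p = 0.101). The remaining one read 7.34 and 7.17 against 7.07, 7.08 and 6.99 (change -0.21, SE 0.08, limma adjusted p = 0.267). All 3 probe sets were lower on every lgl array, but by unequal amounts, and the mean of the 3 changed by -0.70 (limma adjusted p = 0.0465), under the fold threshold.

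A pair of clathrin adaptor genes, lap and AP-2alpha, passed the adjusted p with smaller changes than shi. lap encodes the fly AP180, which recruits clathrin and sets vesicle size, and read 8.69 and 8.49 against 7.68, 7.77 and 7.69. Its change was -0.88 (SE 0.09, limma adjusted p = 0.0315). AP-2alpha encodes a subunit of the AP-2 adaptor and read 9.42 and 9.27 against 8.61, 8.66 and 8.45, a change of -0.77 (SE 0.10, limma adjusted p = 0.0484). Outside the list, other subunits of the same adaptor gave -0.63 for AP-2sigma (SE 0.09, limma adjusted p = 0.0601) and -0.12 for AP-2mu (SE 0.07, limma adjusted p = 0.433). For lap and AP-2alpha the FRT82B arrays lay within 0.2 of each other and no array overlapped. EndoA, the endophilin that bends the membrane, and nwk, an F-BAR protein of the larval nerve terminal, had changes of -0.53 (SE 0.13) and -0.61 (SE 0.13) and did not pass.

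The remaining endocytosis genes, Eps-15, Dap160 and Synj, had changes above 0. Eps-15, an endocytic adaptor, read 6.43 and 7.48 in FRT82B and 7.63, 7.75 and 7.59 in lgl tissue. Every lgl array was above both controls, but FRT82B array 2 was nearer to them than to FRT82B array 1. The change was 0.70 (SE 0.33, limma adjusted p = 0.363), or 1.23 against array 1 and 0.18 against array 2. Dap160, the fly intersectin, a scaffold, read 5.62 and 6.51 against 6.49, 6.60 and 6.55, and Synj, the lipid phosphatase synaptojanin, 6.87 and 7.87 against 7.66, 7.78 and 7.58. For both, FRT82B array 2 lay at the level of the lgl arrays and array 1 stood apart, and neither passed (changes 0.48, SE 0.28, and 0.30, SE 0.32).

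Of the SNARE fusion machinery 6 of 9 genes were measured, and 0 passed the adjusted p. Snap25, the t-SNARE of the neuronal plasma membrane, read 10.21 and 8.84 in FRT82B and 8.49, 8.51 and 8.27 in lgl tissue. The lgl arrays were lower than both controls, but only FRT82B array 1 was far above them. Its change of -1.10 (SE 0.42, limma adjusted p = 0.282) was -1.78 against array 1 and -0.42 against array 2. cpx encodes complexin, which clamps the assembled SNARE complex until calcium arrives, and read 9.95 and 9.48 against 8.71, 8.69 and 8.79, a change of -0.98 (SE 0.16, limma adjusted p = 0.0705). Its other probe set gave -1.16 (SE 0.26). nSyb, the synaptobrevin of neuronal vesicles, read 7.90 and 7.45 against 7.13, 6.89 and 6.97, a change of -0.68 (SE 0.16, limma adjusted p = 0.140).

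The regulators and chaperones of fusion overlapped between the groups. Rop, the Sec1/Munc18 protein that binds syntaxin, had a change of -0.25 (SE 0.14). tomosyn, an inhibitor of SNARE assembly, and Csp, the cysteine string protein that keeps SNAREs folded, had changes of -0.12 (SE 0.17) and 0.02 (SE 0.27). For Csp the lgl arrays (9.20 to 9.25) lay between the FRT82B arrays (8.77 and 9.63).

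The synaptotagmins gave 3 measured genes of 5, all below 0 and none past the test. Syt7 read 8.90 and 8.32 in FRT82B and 7.76, 7.75 and 7.92 in lgl tissue (change -0.80, SE 0.19, limma adjusted p = 0.138), with no overlap. Sytalpha read 6.11 and 4.63 against 4.78, 4.69 and 4.52. Here the lgl arrays matched FRT82B array 2, and the change of -0.70 (SE 0.46) rested on array 1 alone, being -1.44 against it and 0.04 against array 2. Sytbeta was dim, with 4.32 and 4.20 against 3.99, 3.78 and 4.01 (change -0.34, SE 0.10, limma adjusted p = 0.194).

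All 7 active zone genes were measured, with changes from -0.85 to 0.25 and 0 past the adjusted p. The lower ones were CASK, syd-1 and unc-13. CASK, a membrane-associated guanylate kinase, read 9.07 and 9.29 against 8.46, 8.42 and 8.23 (change -0.81, SE 0.11, limma adjusted p = 0.0570). syd-1, a RhoGAP-like protein that helps to seed new active zones, read 8.95 and 9.25 against 8.44, 8.10 and 8.21 (change -0.85, SE 0.15, limma adjusted p = 0.0803). unc-13 primes docked vesicles and read 10.38 and 10.07 against 9.64, 9.39 and 9.40 (change -0.75, SE 0.14, limma adjusted p = 0.0890). In each of these genes every lgl array was below both controls.

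The other active zone genes moved little or depended on the control array. Liprin-alpha, a partner of syd-1 in active zone assembly, read 6.10 and 6.29 against 6.54, 6.33 and 6.35, slightly above both controls (change 0.21, SE 0.11). Rim, which links vesicles to calcium channels, read 6.52 and 7.02 against 7.06, 7.01 and 7.01, while another probe set of it was lower on every lgl array (change -0.36, SE 0.17). brp encodes Bruchpilot, the core of the T-bar. Its brightest probe set read 4.95 and 5.85 against 5.03, 4.97 and 4.84, so that the lgl arrays matched FRT82B array 1 (change -0.45, SE 0.28). RIM-BP, which binds Rim, read 3.67 and 3.55 against 3.28 to 3.45, under the median of every array.

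Genes that make, load or break down transmitters were lower in lgl tissue without exception among the 6 measured, with no overlap between the groups, but none passed the test. The GABA pathway gave Gad1, glutamic acid decarboxylase, at 9.82 and 9.21 against 8.29, 8.44 and 8.11. This was the largest change of the 6 at -1.23 (SE 0.22, limma adjusted p = 0.0812), or 2.35 times. The vesicular GABA transporter VGAT read 7.24 and 6.82 against 6.65, 6.67 and 6.53, a smaller step of -0.41 (SE 0.14, limma adjusted p = 0.245).

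The cholinergic genes ChAT and VAChT share a locus, and their annotated spans overlap. ChAT, choline acetyltransferase, read 7.90 and 8.13 against 7.34, 7.37 and 7.19 (change -0.72, SE 0.11, limma adjusted p = 0.0625). VAChT, the vesicular acetylcholine transporter, read 8.32 and 7.67 against 7.59, 7.42 and 7.07 (change -0.64, SE 0.26, limma adjusted p = 0.309). The changes were alike in size, but the FRT82B arrays stood in opposite order for the 2 genes, with array 2 higher for ChAT and array 1 higher for VAChT. Ace, the acetylcholinesterase that ends the signal, read 7.89 and 9.38 against 7.87, 7.77 and 7.76. The lgl arrays were at the level of FRT82B array 1, and the change of -0.84 (SE 0.46) was -0.09 against array 1 and -1.58 against array 2. VGlut, the vesicular glutamate transporter of motor neurons and other glutamatergic cells, read 6.20 and 6.06 against 5.67, 5.64 and 5.39 (change -0.56, SE 0.11, limma adjusted p = 0.105).

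futsch encodes the fly MAP1B, a microtubule-associated protein that stabilises the cytoskeleton of axons and terminals. It read 7.82 and 7.32 in FRT82B and 6.37, 6.19 and 6.07 in lgl tissue, the second deepest change of the list. The change of -1.36 (SE 0.18), or 2.56 times lower, had a limma adjusted p of 0.0548. In limma, futsch was called lower after quantile normalisation again (adjusted p = 0.0388), after median centring (0.0456) and with brighter probe sets only (0.0255). It was not called with a robust prior and intensity trend (limma adjusted p = 0.0537), array weights (0.181) or a replicate block (0.316). Without 1 lgl array its limma adjusted p was 0.207 to 0.268. The mean of the futsch probe sets changed by -0.55 (limma adjusted p = 0.0735) and was not called. Its other probe sets were dim. One read 4.30 and 4.22 against 3.81 to 4.03, lower on every lgl array, and the other, under the median of every array, 3.29 and 3.24 against 3.20 to 3.37.

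**Figure D2:**
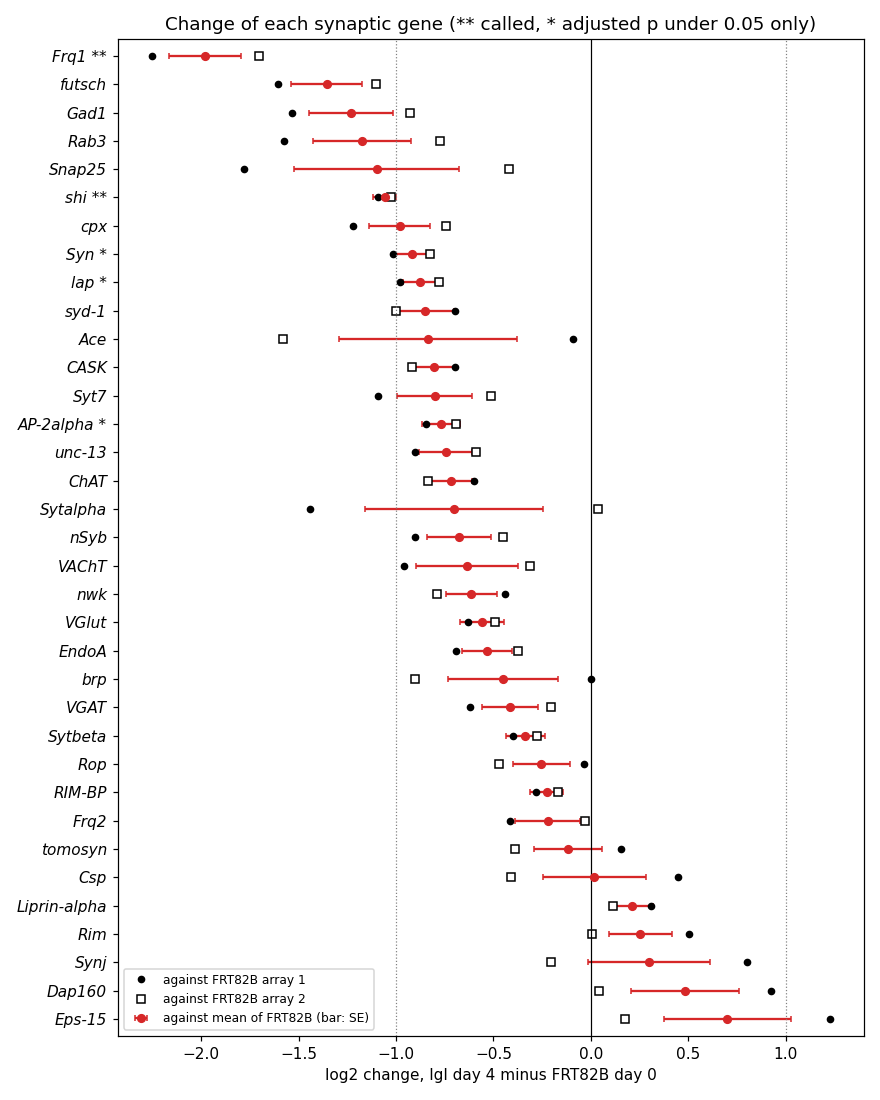
log2 change of each of the 35 genes (lgl day 4 minus FRT82B day 0) against the mean of both FRT82B arrays (red, bar: SE) and against each FRT82B array alone (black and white symbols), ordered by size. Frq1, with -1.98, is at the top and Eps-15, with 0.70, at the bottom, and Frq1, futsch and shi are below -1 against either control array.

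The size of a change depended on the control array for part of the members. The FRT82B arrays were further apart from each other than the lgl mean was from theirs for 14 of 35 members (40%), against 61.1% of all genes. The median change of the members was -0.69 against FRT82B array 1 and -0.49 against array 2. 27 members had a change below 0 against array 1 and 30 against array 2. Between the control arrays 15 members differed by at least 0.5, but only 0, 0 and 1 did between pairs of lgl arrays. The largest gaps were those of Ace, where array 2 was 1.49 higher, Sytalpha, where it was 1.48 lower, and Snap25, where it was 1.36 lower. 30 members kept the sign of their change whichever array was left out, 26 below 0 and 4 above. The sign turned for tomosyn, Csp, Sytalpha, brp and Synj.

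The number of calls changed with the arrays in the fit, over all probe sets as well as among the members. Without FRT82B array 1, limma called 2 members, shi (adjusted p = 0.0427) and Ace (-1.58, adjusted p = 0.0461), and Frq1 was just above the threshold (-1.70, adjusted p = 0.0502). Without FRT82B array 2 it called 11, of which Frq1, shi, futsch, Gad1, Rab3, Snap25, cpx, Syt7, Sytalpha and Syn were lower and Eps-15 higher. Over all probe sets the number called was then 71 and 1306, against 197 with all arrays. When any 1 lgl array was left out, limma called 0 members and 0 probe sets in all. In these fits 5 or 6 of 35 members and 538 to 584 of 18769 probe sets passed a limma unadjusted p of 0.05 and the fold threshold. With array weights Frq1 and shi had adjusted p of 0.101 and 0.0767 in limma and were not called. When 1 lgl array was left out, their adjusted p was 0.167 to 0.197 and 0.125 to 0.150. The changes of Frq1 and shi stayed between -2.26 and -1.70 and between -1.09 and -1.03 over all these fits.

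Of the 35 members 11 had several probe sets, and the brightest was used. Of their 16 further probe sets, 0 were called, 12 had a change below 0, and 6 lay under the median of every array. The probe sets of cpx gave like changes. For lap the dimmer one read 4.87 and 4.40 against 4.18, 4.40 and 4.40 (change -0.31, SE 0.17), and for nwk 3.64 and 3.86 against 3.86 to 3.92, so that the groups overlapped on the dimmer probe set of both genes. RMA compresses changes near background, which bears on these dim probe sets.

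**Figure D3:**
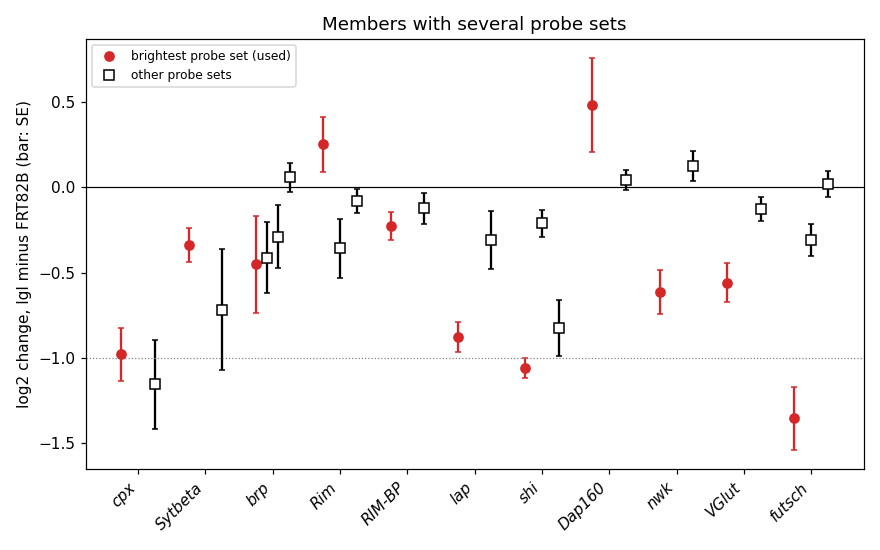
log2 change (lgl minus FRT82B, bar: SE) of every probe set of the 11 genes with several; red circles are the brightest probe set of each gene and white squares the others. The probe sets of shi range from -1.06 to -0.21, and the further ones of futsch lie between -0.31 and 0.02.

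A list of further genes of the vesicle cycle and of release had smaller changes. Of 34 measured, limma called 0, with 12 lower and 2 higher at an unadjusted p under 0.05 (11.3% and 10.7% of all genes), and the median change was -0.26. Every lgl array was below both controls for 14 of the 34 and above for 2, against 21.1% and 17.6% of all genes. The lowest change was that of cac, the calcium channel of the active zone, which read 8.37 and 7.26 against 6.87, 6.80 and 6.95 (change -0.94, SE 0.34, limma adjusted p = 0.258). The highest was that of Esyt2, an extended synaptotagmin of the endoplasmic reticulum, at 7.68 and 6.83 against 8.12, 8.36 and 8.09 (change 0.93, SE 0.28, limma adjusted p = 0.193). Genes of this list that most cells express were picked after their values were seen, and they did not move alike. Syb, the general synaptobrevin, read 9.50 and 9.24 against 9.43 to 9.53, beside a change of -0.68 for nSyb. The clathrin heavy chain gene Chc read 10.56 and 10.64 against 10.42 to 10.55, and Hsc70-4, the chaperone that uncoats vesicles, 13.32 and 13.30 against 13.20 to 13.35. Their changes were 0.09, -0.09 and -0.01. Others read lower, though none passed the adjusted p. Arl8, a GTPase of lysosomes and of vesicle precursors, had a change of -0.92 (SE 0.24), alphaSnap, which helps to take SNARE complexes apart, -0.73 (SE 0.27), and the clathrin light chain gene Clc -0.30 (SE 0.07), each with every lgl array below both controls. Snap24, a relative of Snap25, had -0.52 (SE 0.34) and overlapped. Differences between genes were not tested.

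Some markers of other cell types also differed between the groups, and their part in the synaptic values was not tested. In RNA of whole tissue, fewer neurons and less synaptic RNA per neuron cannot be told apart. For the counts of calls below, 0.609% of all genes were called lower and 0.734% higher. Of 11 further neuronal genes 2 were called lower, fne and Vmat, the median was -0.50, and elav, the general neuronal marker, overlapped (9.18 and 10.29 against 8.83 to 9.57). Their summed linear intensity was 5629 and 5909 on the FRT82B arrays and 3122 to 3624 on the lgl arrays, and that of the synaptic genes 11337 and 12752 against 6888 to 7512. Bright genes weigh most in such sums. The neuronal gene with the largest fall, nrv3, read 11.25 and 10.39 against 9.04, 9.30 and 8.98 (change -1.71, SE 0.28, limma adjusted p = 0.0751). Neural stem cell genes went the other way, with 4 of 12 called higher, a median of 1.14 and sums of 2818 and 3721 against 8536 to 9490. Of 12 glial genes 1 was called lower and the FRT82B arrays were further apart than the groups for 10, with a median of -0.28 and sums of 4967 and 7487 against 3586 to 3894. Eye disc genes had a median of 0.12 over 10 genes, with 1 called lower and 6 overlapping, and sums of 1111 and 1439 against 1741 to 2005. Haemocyte, trachea, muscle and ring gland genes had medians of 0.96, 0.74, -0.75 and -2.45, with 1 haemocyte gene called higher, 3 ring gland genes called lower and 0 genes of the other lists called. On the eye disc, trachea and muscle lists 1 gene each lay under the median of every array, and 0 on the other marker lists.

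**Figure D4:**
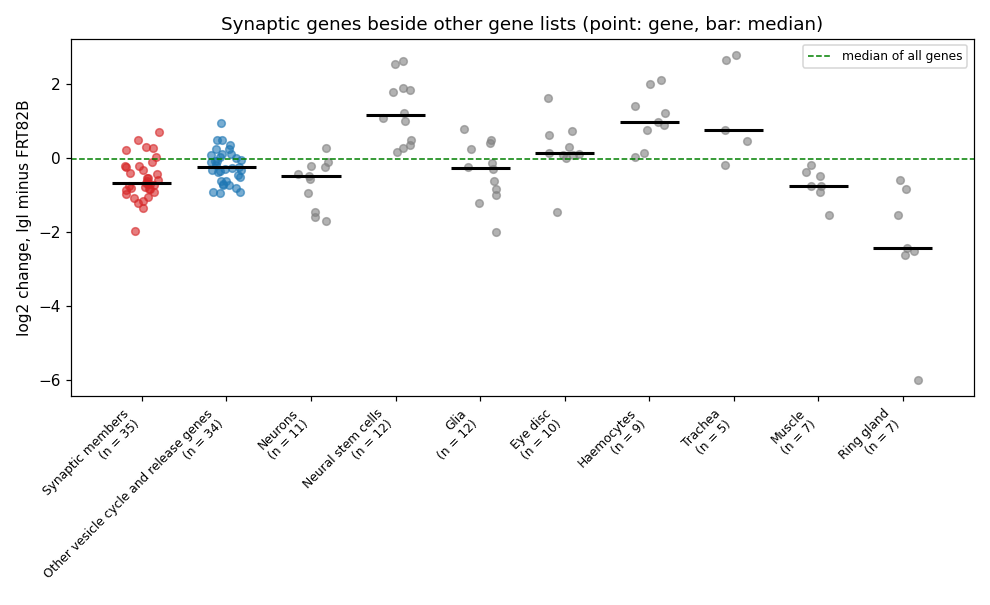
log2 change (lgl minus FRT82B) of each gene of the synaptic list (red), of further vesicle cycle genes (blue) and of cell type marker lists (grey); the bar is the median of each list and the dashed line that of all genes. The synaptic genes have a median of -0.68, near the neuronal genes at -0.50, while neural stem cell genes have a median of 1.14.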

How the data were processed

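mRNA was measured on Affymetrix Drosophila 2.0 arrays, 2 of FRT82B and 3 of lgl tissue. The authors deposited log2 values, 1 per probe set and array, after background correction and normalisation by RMA in R. RMA makes the distributions of the arrays nearly equal and can hide a shift common to the bulk of the transcripts. Affymetrix control probe sets (183) were left out, which left 18769. Genes were named from the platform annotation, with symbols updated by gene identifier (13544 of the 13647 probe sets with 1 symbol matched), and the probe set with the highest mean over all arrays was used. RIM-BP, syd-1 and tomosyn matched under the current symbols Rbp, RhoGAP100F and Tomosyn.

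Groups, from the array titles, were compared with limma 3.58.1 (lmFit and eBayes, R 4.3.3), without covariates, and p-values were adjusted over all probe sets by Benjamini-Hochberg, after the study's methods. The procedure was tested on simulated data. The members and lists were chosen with earlier results of these data known. Members named with full statistics were those called, the largest rise and fall of each role group, and pairs that share a locus or are paralogs, and the others were added for completeness after their values were seen. The titles call the arrays biological replicates, and the number of arrays limits the precision. Alternatives were renormalisation, median centring, brighter probe sets, a robust prior with an intensity trend, array weights, a replicate block, averaging the probe sets of each gene, a lower fold threshold, and leaving out each array.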

Additional observations from a re-analysis of the deposited data

How the results depend on the processing

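The count of called probe sets (197) was 395 with brighter probe sets only, 12 with array weights and 302 with an absolute log2 change of at least 0.5, and 0 to 1306 when 1 array was left out. The count of called synaptic genes (2) was 3 after median centring and after a further quantile step, with futsch added in both, 4 with brighter probe sets, 0 with array weights, 1 with probe sets averaged per gene and 5 at the lower fold threshold, and 0 to 11 when 1 array was left out. The synaptic genes past the adjusted p at any fold (5) were 8 with quantile normalisation again, 11 with brighter probe sets, 2 with a robust prior and intensity trend and 0 with array weights, and 0 to 23 when 1 array was left out. Matching counts over all genes at any fold were not made for these fits. With array weights 6 of 35 synaptic genes and 638 of 18769 probe sets passed a limma unadjusted p of 0.05 and the fold threshold. The median change of the synaptic genes (-0.68) was -0.59 with the mean of probe sets and between -0.74 and -0.49 when 1 array was left out. The change of Csp (0.02) ranged from -0.41 to 0.45 and that of Sytalpha (-0.70) from -1.44 to 0.036 when 1 array was left out, and that of Rim (0.25) was -0.062 with the mean of its probe sets. The cause of these shifts was not tested. With the brighter probe sets fewer were adjusted over, but the spread was also estimated anew, and the SE of shi went from 0.06 to 0.12. A fit with a single FRT82B array takes its spread from the lgl arrays alone.

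With the replicate number as a block, limma called 0 probe sets and 0 synaptic genes, and 0 synaptic genes passed the adjusted p at any fold. In that fit 616 of 18769 probe sets and 6 of 35 synaptic genes passed a limma unadjusted p of 0.05 and the fold threshold. Under the block lgl array 3 shares its number with no control array. The labels do not say whether arrays of the same number were handled together. The difference of arrays 1 and 2 in FRT82B and in lgl correlated at 0.06 over probe sets. This cannot settle the question, since the FRT82B arrays differed by at least 1 on 994 probe sets and lgl arrays 1 and 2 on 87.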
